A study of Mus musculus with 9 samples.

Results

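The genes described here include the subunits of NF-κB, *Nfkb1*, *Nfkb2*, *Rela*, *Relb* and *Rel*. *Nfkbia*, *Nfkbib*, *Nfkbie* and *Tnfaip3* encode inhibitors that NF-κB signalling induces or restrains. The last is *Birc3*, which NF-κB induces and which encodes a ubiquitin ligase at the TNF receptor. These 10 genes were chosen by their textbook roles from the 19044 Ensembl gene identifiers in the table, and all 10 were found. Their transcripts were measured by RNA sequencing of cultured mouse squamous cell carcinoma (SCC) cells that differ in focal adhesion kinase (FAK), a tyrosine kinase of integrin adhesions that is also found in the nucleus. The 3 cell lines, with 3 libraries each, were FAK-/- SCC cells, FAK-WT-expressing SCC cells and SCC cells expressing FAK-kd, a kinase-deficient FAK. The comparisons address what depends on FAK (FAK-WT against FAK-/-), what depends on its kinase activity (FAK-WT against FAK-kd), and what the kinase-deficient protein adds to cells without FAK (FAK-kd against FAK-/-).

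All 3 lines go back to SCC cells that the DMBA/TPA chemical carcinogenesis protocol raised in the skin of FVB mice with K14CreER and FAK flox/flox alleles, in which a keratin promoter drives a tamoxifen-activated Cre. *FAK* was deleted in culture by activating the Cre, so that every line carries the deletion. FAK-WT and FAK-kd were then put back by retrovirus into a FAK-/- clone and selected with hygromycin, and no vector control for the FAK-/- cells is described in the sources used here. Each group is therefore 1 cell line of clonal origin, and the p-values measure the spread between cultures of that line.

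NF-κB is a dimer of Rel-family proteins. RelA, RelB and c-Rel carry transactivation domains, whereas the products of *Nfkb1* and *Nfkb2* are precursors that are processed to DNA-binding subunits without one. In resting cells the inhibitors IκBα, IκBβ and IκBε, encoded by *Nfkbia*, *Nfkbib* and *Nfkbie*, hold the dimers in the cytoplasm, until the IκB kinase complex marks them for degradation. The released dimers switch on, among many inflammatory genes, several of their own regulators, among them IκBα and the ubiquitin-editing enzyme A20 (*Tnfaip3*), which damp the signal, and cIAP2 (*Birc3*), a ubiquitin ligase at the TNF receptor. In skin, keratinocytes use the pathway in inflammation, survival and the control of growth.

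κB sites are the DNA elements that these dimers bind, and sequence near the gene starts is shown for *Birc3*, *Nfkbie* and *Tnfaip3*, whose transcripts differed between the lines, and for *Nfkbia*, *Rel* and *Nfkb2*, which are textbook κB-induced members. *Nfkbib*, which also differed, is not shown because its window overlaps exons of *Sirt2*. The sequences are RefSeq start windows (GRCm38.p6, 250 bases before to 50 bases after each annotated start), read 5′ to 3′ on the strand of the gene, and capitals mark bases covered by a match to the general 10-base κB consensus on either strand, overlapping matches merged. RefSeq windows were matched for 8 of the 10 members, with *Nfkb1* and *Relb* missing. Stretches free of annotated exons are given for *Birc3* (chr9:7873187-7873320, minus strand), *Nfkbie* (chr17:45555550-45555699, plus strand), *Nfkbia* (chr12:55492648-55492797, minus strand) and *Rel* (chr11:23770971-23771119, minus strand), and single 30-base sites for *Tnfaip3* (chr10:19015516-19015545 and chr10:19015403-19015432, minus strand) and *Nfkb2* (chr19:46304689-46304718 and chr19:46304716-46304745, plus strand). Both *Nfkb2* sites lie in annotated exons, as do 8 bases of the second *Tnfaip3* site, and 2 further *Nfkb2* sites near later annotated starts (chr19:46305449-46305478 and chr19:46305695-46305724) are not printed.
Birc3: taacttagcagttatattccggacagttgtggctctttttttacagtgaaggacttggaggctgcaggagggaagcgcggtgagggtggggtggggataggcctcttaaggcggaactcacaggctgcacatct
Nfkbie: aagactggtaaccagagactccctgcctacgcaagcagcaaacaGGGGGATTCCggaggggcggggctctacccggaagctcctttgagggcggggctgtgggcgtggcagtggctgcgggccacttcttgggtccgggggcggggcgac
Nfkbia: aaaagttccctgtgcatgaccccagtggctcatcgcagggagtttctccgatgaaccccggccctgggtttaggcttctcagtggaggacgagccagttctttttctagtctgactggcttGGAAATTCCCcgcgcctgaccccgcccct
Rel: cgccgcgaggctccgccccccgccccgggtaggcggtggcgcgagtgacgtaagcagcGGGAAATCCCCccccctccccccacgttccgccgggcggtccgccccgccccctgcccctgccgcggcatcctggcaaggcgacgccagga
Tnfaip3, upstream site: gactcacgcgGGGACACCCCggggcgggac
Tnfaip3, site at the start: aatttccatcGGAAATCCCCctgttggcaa
Nfkb2, first site: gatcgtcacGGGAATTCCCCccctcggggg
Nfkb2, second site: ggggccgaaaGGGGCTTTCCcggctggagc

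A match was present in the windows of 5 of the 8 members (62.5%), namely *Tnfaip3*, *Rel*, *Nfkbia*, *Nfkbie* and *Nfkb2*, and the same search matched 8.46% of all 32851 start windows and 9.55% of the 27025 genes with at least 1 window. The windows of *Birc3*, *Nfkbib* and *Rela* held no match. A match describes letters in the window and was not tested for binding, and its absence says nothing of κB sites elsewhere.

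Expression is given as CPM, counts scaled to library size, with TMM normalization. FAK-WT replicate 1 stood apart in depth, with 779755 counts, 2.31% of the median of the other 8 libraries (25304994 to 37264636 counts). A floor of 3 counts lay at 3.78 CPM in that library and at 0.0798 to 0.118 CPM in the others. It therefore carries little weight in the edgeR fit for members below 10 CPM. The group means and SDs of CPM and the overlap of libraries, by contrast, count it like any other library. *Ptk2*, which encodes FAK, averaged 215 CPM with FAK-WT, 21.6 without FAK and 163 with FAK-kd. It passed the test as higher in FAK-WT than in FAK-kd cells (edgeR log2 fold change 0.4). With each library left out the change was 0.38 to 0.47, at an adjusted p of at most 0.0138 (edgeR). These 2 lines therefore differ in *FAK* transcript level as well as in kinase activity. Of 10 markers of keratinocytes fixed for the check of the label, 8 were analysed, and only *Itga6*, an integrin subunit of basal keratinocytes, passed a mean of 1 CPM. The other 7, with the keratins *Krt5*, *Krt14*, *Krt6a*, *Krt8* and *Krt18* and the cadherin *Cdh1* among them, reached at most 1.38 CPM in any library. The summed marker level was 170 to 175 CPM in FAK-WT, 283 to 298 in FAK-/- and 253 to 275 in FAK-kd cells. Nearly all of it was *Itga6* (means of 172, 289 and 261 CPM). In the same order, 5 fibroblast markers summed to 16.4 to 17.6, 31.7 to 36.3 and 25.1 to 36.5 CPM. The larger part was *Pdgfra* (means of 11.1, 31 and 24.7 CPM), whereas *Col1a2* averaged 4.9, 2.5 and 6.11 CPM. Between FAK-WT and FAK-/- cells 1 fibroblast marker passed the test in each direction, and *Col1a2* did not pass. Of 8 leukocyte markers 5 were analysed, with sums of 0 to 2.29, 3.08 to 3.68 and 1.59 to 2.66 CPM, and 4 endothelial markers summed to at most 2.05 CPM. The leukocyte sum of 0 is that of the shallow FAK-WT library. Most of the other leukocyte sums was *Cd68* (means of 1.26, 2.72 and 2.05 CPM), and no leukocyte marker passed the test in any comparison. The keratinocyte and fibroblast sums moved with the cell line largely through single genes, and the part of these marker levels in the results below was not tested.

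The members fell into an order of level that all 3 lines largely shared. Per kilobase of the longest coding transcript, the scale on which genes can be compared, *Nfkb1* stood highest with 45.2 CPM per kb with FAK-WT, 45.7 without FAK and 43.8 with FAK-kd. *Rela* (30.6, 36.1 and 36.6 CPM per kb) and *Nfkb2* (29.2, 28.2 and 24.9) followed, and on this scale their libraries overlapped in FAK-WT and FAK-/- cells and not in FAK-kd cells. *Nfkbia* and *Nfkbib* lay between 10.0 and 15.1 CPM per kb and *Relb* between 7.96 and 10.8. *Nfkbie*, *Rel*, *Tnfaip3* and *Birc3* closed the order, none above 3.91 CPM per kb, and it was among these low members that most of the differences between lines were found. *Birc3* was the lowest of the 10 in FAK-WT cells at 0.0285 CPM per kb, and reached 0.542 in FAK-/- and 1.59 in FAK-kd cells, where it stood close to *Rel* (1.60).

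**Figure D1:**
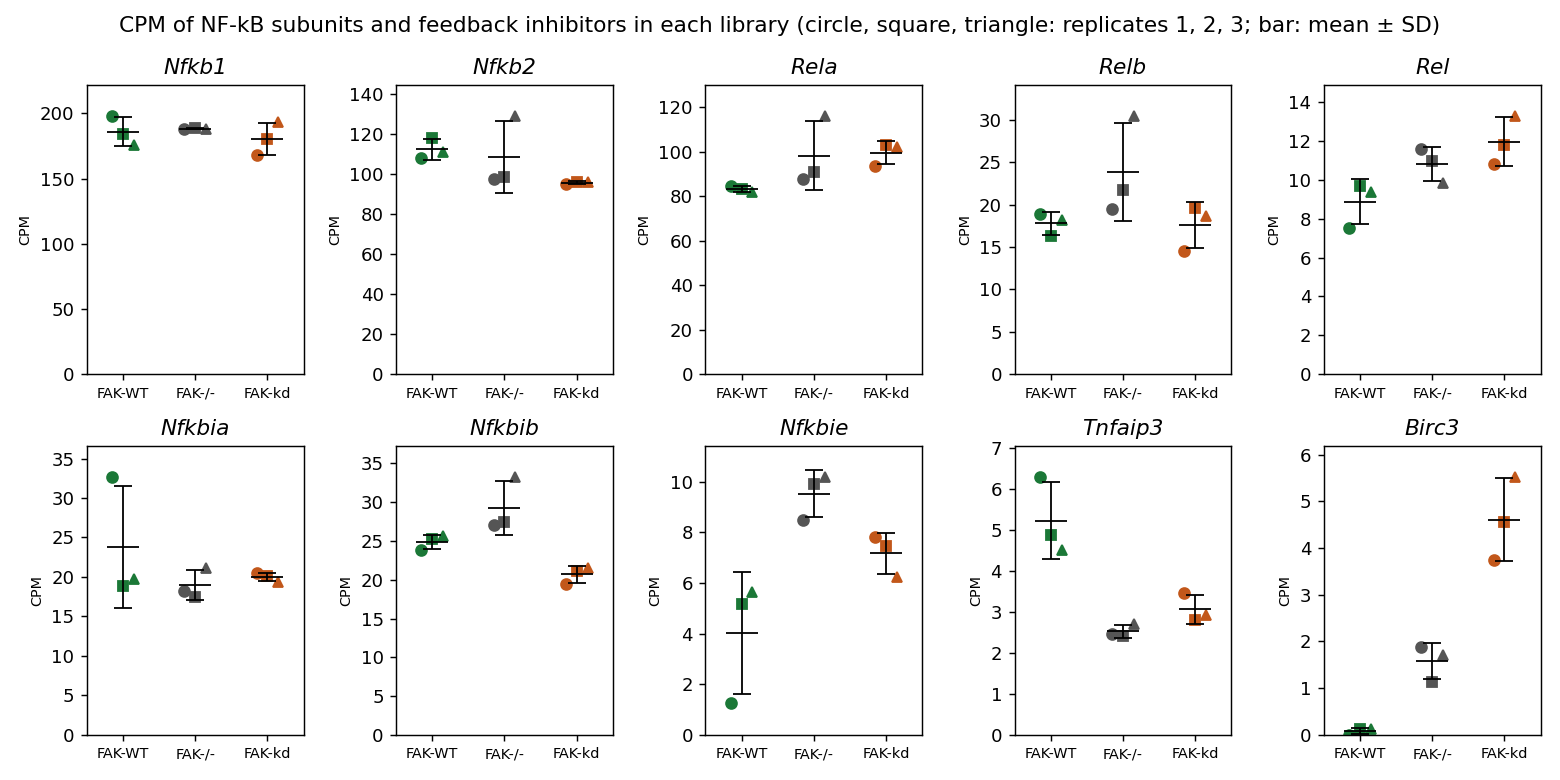
CPM (vertical axis, starting at 0, a separate scale for each gene) of the 10 members in each library of FAK-WT, FAK-/- and FAK-kd cells, with circles, squares and triangles for replicates 1, 2 and 3 and bars for the mean ± SD (n = 3). *Birc3* separates all 3 lines, whereas the libraries of *Nfkb1* lie between 168 and 198 CPM in all of them.

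None of the 5 subunits passed the test in any comparison. *Nfkb1* (ENSMUSG00000028163, chr3:135584655-135691547, minus strand), the gene of p105 and p50, measured 198, 184 and 176 CPM in FAK-WT, 188, 189 and 188 in FAK-/- and 168, 180 and 193 in FAK-kd cells. The libraries of the 3 lines overlapped throughout, and the group means spanned 0.06 on the log2 scale. In edgeR's quasi-likelihood test with Benjamini-Hochberg adjustment over all genes, the log2 fold change of FAK-WT over FAK-/- cells was -0.03 (SE 0.07, adjusted p = 0.807) and that over FAK-kd cells 0.03 (SE 0.07, adjusted p = 1). *Nfkb1* was thus the most even member, and differences of the size seen for *Birc3* or *Tnfaip3* lay far outside its standard errors.

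*Rela* (ENSMUSG00000024927, chr19:5637483-5648130, plus strand), the main transactivating subunit of the canonical pathway, measured 84.3, 83.0 and 81.6 CPM in FAK-WT, 87.5, 90.8 and 116 in FAK-/- and 93.6, 103 and 102 in FAK-kd cells. All FAK-WT libraries lay below all libraries of the other 2 lines. The edgeR log2 fold changes were small, -0.25 against FAK-/- (SE 0.10, adjusted p = 0.103) and -0.27 against FAK-kd cells (SE 0.10, adjusted p = 0.0774), and neither passed the test. The FAK-kd and FAK-/- libraries overlapped (log2 fold change 0.02, SE 0.09, edgeR adjusted p = 0.966).

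*Rel* (ENSMUSG00000020275, chr11:23736847-23770970, minus strand) encodes c-Rel, best known from lymphocytes. It measured 7.55, 9.71 and 9.37 CPM in FAK-WT, 11.6, 11.0 and 9.86 in FAK-/- and 10.8, 11.8 and 13.3 in FAK-kd cells. As for *Rela*, the FAK-WT libraries lay below all others, and as for *Rela* no difference passed the test (edgeR log2 fold change of FAK-WT over FAK-/- -0.20, SE 0.13, adjusted p = 0.339, and over FAK-kd -0.35, SE 0.13, adjusted p = 0.0757).

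In the alternative pathway, *Nfkb2* (ENSMUSG00000025225, chr19:46304320-46312385, plus strand), the gene of p100 and p52, measured 108, 118 and 111 CPM in FAK-WT, 97.6, 98.5 and 129 in FAK-/- and 94.8, 96.1 and 96.2 in FAK-kd cells. The FAK-kd libraries were lower than all others, by a log2 fold change of 0.24 for FAK-WT over FAK-kd (SE 0.10, adjusted p = 0.106) and -0.18 for FAK-kd over FAK-/- (SE 0.09, adjusted p = 0.300, edgeR), which did not pass the test. Its exons share 830 bases with antisense genes (*Psd* and AC114539.1), and reads of an unstranded library cannot be told apart there. *Relb* (ENSMUSG00000002983, chr7:19606217-19629438, minus strand), whose product pairs with p52, measured 18.9, 16.3 and 18.2 CPM in FAK-WT, 19.5, 21.7 and 30.5 in FAK-/- and 14.5, 19.6 and 18.7 in FAK-kd cells. FAK-/- cells had the highest mean, 23.9 ± 5.81 CPM (SD, n = 3) against 17.8 ± 1.33 in FAK-WT and 17.6 ± 2.74 in FAK-kd cells. The log2 fold changes were -0.46 for FAK-WT (SE 0.17, adjusted p = 0.0682) and -0.44 for FAK-kd over FAK-/- (SE 0.15, adjusted p = 0.0925, edgeR), neither past the test.

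Among the inhibitors of the IκB family, *Nfkbib* and *Nfkbie* each passed the test in 1 comparison and *Nfkbia* in none. *Nfkbia* (ENSMUSG00000021025, chr12:55489410-55492647, minus strand), whose product IκBα is resynthesised on NF-κB activation, measured 32.7, 18.9 and 19.7 CPM in FAK-WT, 18.2, 17.5 and 21.1 in FAK-/- and 20.5, 20.1 and 19.4 in FAK-kd cells. The value that stands above the others is that of the shallow FAK-WT library and rests on 26 counts. The other 8 libraries lay between 17.5 and 21.1 CPM, and no log2 fold change passed the test (0.11, SE 0.13, adjusted p = 0.717 for FAK-WT over FAK-/- cells, edgeR).

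*Nfkbib* (ENSMUSG00000030595, chr7:28758251-28767512, minus strand), the gene of IκBβ, which binds dimers more lastingly than IκBα, measured 23.9, 25.2 and 25.6 CPM in FAK-WT, 27.1, 27.4 and 33.3 in FAK-/- and 19.5, 21.1 and 21.5 in FAK-kd cells. The 3 lines did not overlap, with FAK-/- cells highest and FAK-kd cells lowest. The difference between these passed the test: *Nfkbib* was 1.41-fold lower in FAK-kd than in FAK-/- cells (log2 fold change -0.50, SE 0.10, edgeR adjusted p = 0.00491), and it stayed past the test with any 1 library left out (-0.56 to -0.40). FAK-WT cells stood between them, with log2 fold changes of -0.21 against FAK-/- (SE 0.11, adjusted p = 0.206) and 0.29 against FAK-kd cells (SE 0.11, adjusted p = 0.0777, edgeR). Its exons share 356 bases with *Ccer2* and *Sirt2* on the other strand, where the reads cannot be told apart.

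*Nfkbie* (ENSMUSG00000023947, chr17:45555703-45563169, plus strand) encodes IκBε, a slower member of the feedback. It measured 1.26, 5.16 and 5.65 CPM in FAK-WT, 8.48, 9.90 and 10.2 in FAK-/- and 7.80, 7.46 and 6.24 in FAK-kd cells. The 3 lines did not overlap here either, with FAK-WT lowest and FAK-/- highest, although the lowest value is 1 count in the shallow library. *Nfkbie* was 1.83-fold lower with FAK-WT than without FAK (log2 fold change -0.88, SE 0.18, edgeR adjusted p = 0.00323), a call kept with any 1 library left out (-0.99 to -0.80). FAK-kd cells lay between, -0.46 for FAK-WT over FAK-kd (SE 0.18, adjusted p = 0.101) and -0.41 for FAK-kd over FAK-/- (SE 0.16, adjusted p = 0.159, edgeR), neither past the test.

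*Tnfaip3* (ENSMUSG00000019850, chr10:19000910-19015657, minus strand), whose product A20 removes activating ubiquitin chains from the TNF receptor complex, moved the other way. It measured 6.29, 4.87 and 4.50 CPM in FAK-WT, 2.46, 2.41 and 2.69 in FAK-/- and 3.45, 2.79 and 2.93 in FAK-kd cells. All FAK-WT libraries lay above all others, and the FAK-kd libraries above those of FAK-/- cells by a smaller step. The highest value, 6.29 CPM, is that of the shallow FAK-WT library and rests on 5 counts. *Tnfaip3* was 1.91-fold higher with FAK-WT than without FAK (log2 fold change 0.94, SE 0.21, edgeR adjusted p = 0.00478), and with any 1 library left out the change was 0.89 to 1.03. Against FAK-kd cells it was 1.58-fold higher (0.66, SE 0.20, edgeR adjusted p = 0.0364). That second call was lost with DESeq2 (adjusted p = 0.0703) and without FAK-WT replicate 2 (adjusted p = 0.164) or 3 (0.103) or FAK-kd replicate 2 (0.132) or 3 (0.103, edgeR), at log2 fold changes of 0.61 to 0.75. FAK-kd and FAK-/- cells differed by 0.28 (SE 0.19, adjusted p = 0.469, edgeR).

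*Birc3* (ENSMUSG00000032000, chr9:7848699-7873186, minus strand) had the widest range of the 10. It measured 0, 0.133 and 0.115 CPM in FAK-WT, 1.89, 1.14 and 1.70 in FAK-/- and 3.75, 4.55 and 5.53 in FAK-kd cells, from 0, 5 and 4 counts, 63, 29 and 53 counts, and 125, 152 and 189 counts. The lines did not overlap in any pair, FAK-WT cells were close to the floor, and FAK-kd cells were highest. *Birc3* was 12.5-fold lower with FAK-WT than without FAK (log2 fold change -3.65, SE 0.40, edgeR adjusted p = 8.58e-06) and 36.4-fold lower than with FAK-kd (-5.18, SE 0.39, adjusted p = 1.72e-07). FAK-kd cells were 2.90-fold above FAK-/- cells (1.54, SE 0.25, edgeR adjusted p = 0.00114). Adding back FAK-WT and adding back FAK-kd thus went with *Birc3* levels on opposite sides of that of the FAK-/- cells. In these bulk libraries fewer expressing cells and less RNA per cell cannot be told apart.

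The *Birc3* result did not rest on the shallow library, in which the FAK-/- level would have given 1.25 counts. Over FAK-WT replicates 2 and 3 alone the mean was 0.124 CPM (9 counts), and the means of FAK-/- and FAK-kd cells were 12.7 and 37.1 times that level. All 3 calls held with any 1 library left out, at log2 fold changes of -3.81 to -3.48, -5.30 to -5.02 and 1.35 to 1.69. Of the 31-base words of *Birc3* transcripts, 11.3% also occur in transcripts of other genes, so that some of its reads are uncertain. Gm7019, Gm43392 and *Birc2* share the most. *Birc2*, which encodes the neighbouring cIAP1, averaged 13.7, 15.1 and 17.1 CPM in FAK-WT, FAK-/- and FAK-kd cells, and none of its differences passed the test (log2 fold change of FAK-WT over FAK-kd -0.28, SE 0.10, edgeR adjusted p = 0.0658).

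**Figure D2:**
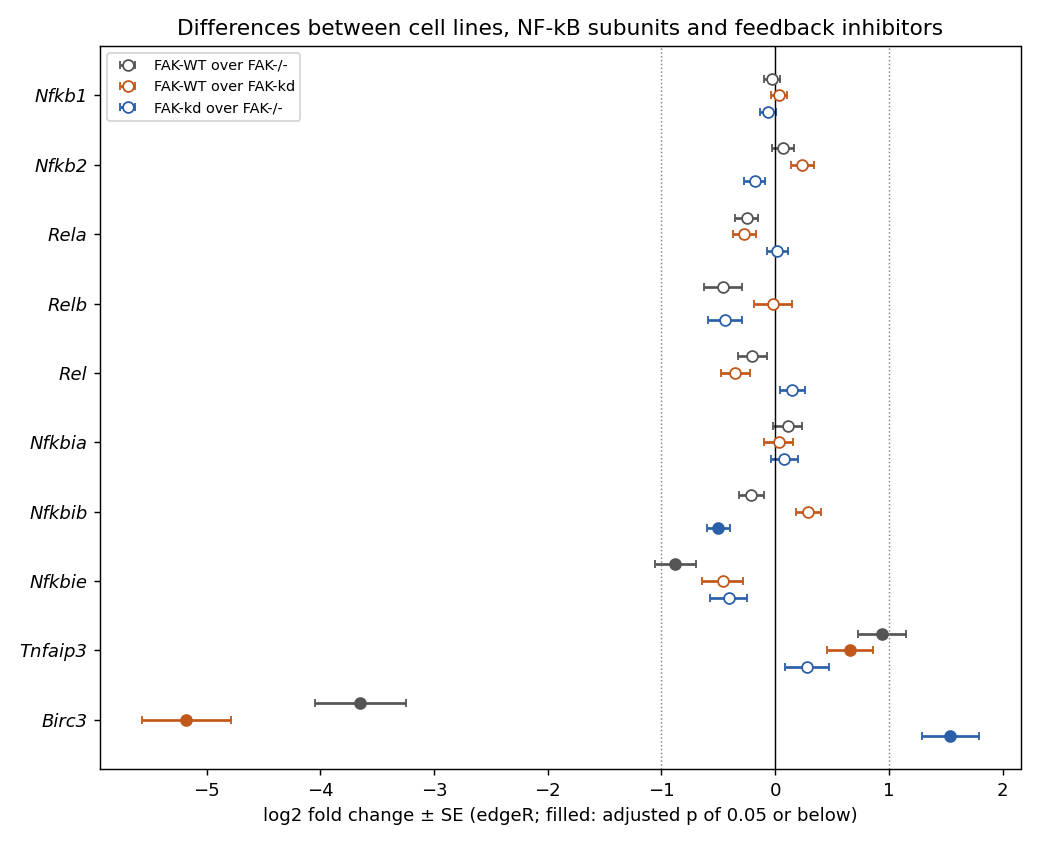
Log2 fold change ± SE (horizontal axis) of each member in the 3 comparisons, from edgeR over all 9 libraries, with filled circles for an adjusted p of 0.05 or below and dotted lines at changes of 1 in size. *Birc3* lies apart at -3.65, -5.18 and 1.54, and the filled circles of the other members are those of *Nfkbib* (-0.50), *Nfkbie* (-0.88) and *Tnfaip3* (0.94 and 0.66).

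Counted over the members, FAK-WT-expressing cells had 1 higher (*Tnfaip3*) and 2 lower (*Birc3* and *Nfkbie*) than FAK-/- cells did, while 18% of all genes tested passed the same test (8.01% higher and 9.96% lower) and 27.8% of the 10912 genes with a mean of at least 1 CPM, a level that all 10 members reach. In FAK-WT against FAK-kd cells 1 was higher (*Tnfaip3*) and 1 lower (*Birc3*), against a background of 17.7% of all genes (7.58% higher and 10.2% lower) and 27.3% of those at 1 CPM. In FAK-kd against FAK-/- cells 1 was higher (*Birc3*) and 1 lower (*Nfkbib*), against 7.84% (3.97% higher and 3.88% lower) and 12.5%. The shares of members, 30%, 20% and 20%, were thus close to those of genes at a like level in the first 2 comparisons, and with 10 members 1 gene more or less moves a share by 10%. With a change of at least 1 on the log2 scale asked for as well, *Birc3* alone was called in each comparison, where 5.38%, 5.26% and 2.01% of all genes and 5.79%, 5.55% and 2.31% of those at 1 CPM were. Tested against a change of that size (edgeR's glmTreat), *Birc3* passed for FAK-WT against both other lines and not for FAK-kd against FAK-/- cells (adjusted p = 0.507).

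The libraries of the lines compared did not overlap for 7, 7 and 5 of the 10 members, against 44.2%, 50.2% and 36.4% of genes with a mean of at least 1 CPM. The median log2 fold change of the members was -0.21 for FAK-WT over FAK-/-, 0.00 for FAK-WT over FAK-kd and -0.02 for FAK-kd over FAK-/- cells, beside medians of 0.00 over all genes. In size, the members' median change of 0.23, 0.28 and 0.23 stood beside 0.21, 0.20 and 0.15 for genes at 1 CPM or more. The 3 comparisons share libraries in pairs and are not independent of each other.

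Several of the smaller differences depended on a single library. FAK-/- replicate 3 was the highest of its line for 7 of the 10 members and the highest of all 9 libraries for 5 (*Nfkb2*, *Rela*, *Relb*, *Nfkbib* and *Nfkbie*). Without it 7 members in place of 2 passed the test between FAK-WT and FAK-kd cells, although neither group of that comparison holds this library. It enters through the spread that all 9 libraries share. The added ones were *Nfkb2* (log2 fold change 0.25, adjusted p = 0.000608) and *Nfkbib* (0.29, adjusted p = 0.00702) as higher and *Rela* (-0.27, adjusted p = 0.000608), *Rel* (-0.34, adjusted p = 0.0225) and *Nfkbie* (-0.44, adjusted p = 0.0377) as lower in FAK-WT cells by edgeR, while the number of all genes past the test went from 3376 to 5366. *Nfkb2* was also added in FAK-WT against FAK-/- cells (0.22, adjusted p = 0.00683). Without FAK-/- replicate 1, *Rela* (-0.31, adjusted p = 0.0458) and *Relb* (-0.58, adjusted p = 0.0189) were added as lower with FAK-WT than without FAK, and *Relb* as lower in FAK-kd than in FAK-/- cells (-0.57, adjusted p = 0.0245, edgeR).

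**Figure D3:**
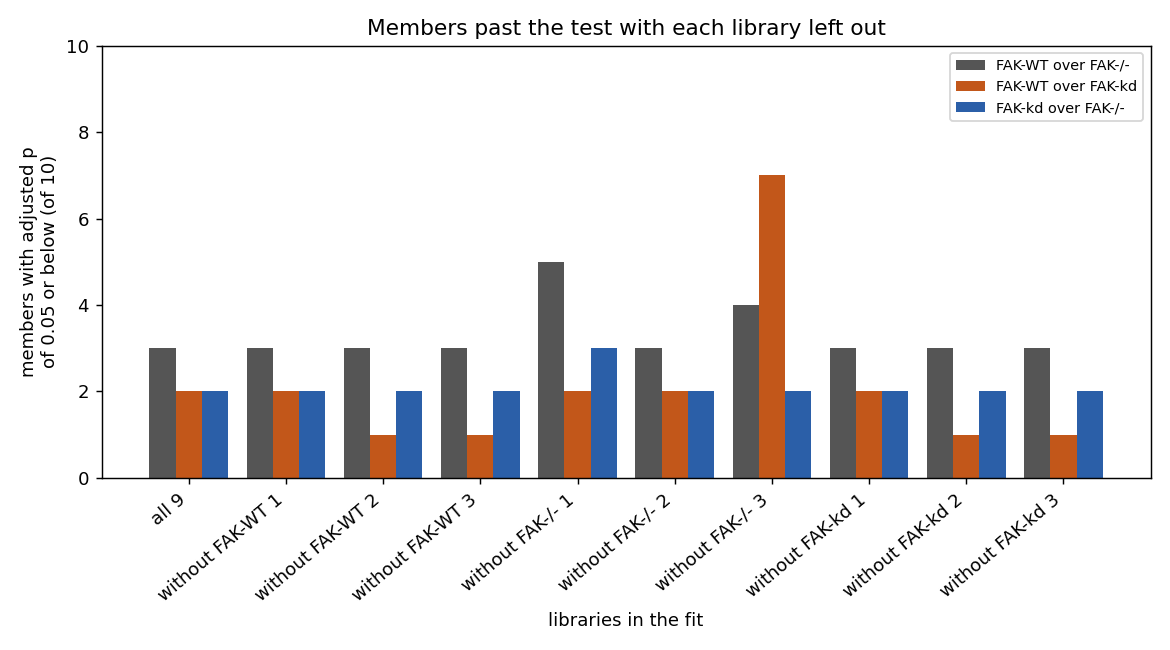
Number of the 10 members with an edgeR adjusted p of 0.05 or below (vertical axis) in each comparison, with all 9 libraries and with each left out in turn (horizontal axis). The count for FAK-WT over FAK-kd goes from 2 to 7 without FAK-/- replicate 3, and that for FAK-WT over FAK-/- from 3 to 5 without FAK-/- replicate 1.

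The genes whose levels followed a member most closely over the 9 libraries were sought for *Nfkbib* and *Rel*, the members above 10 CPM with the widest range between lines. By the root-mean-square difference of log2 CPM, each gene centred on its own mean, the nearest of 8648 genes to *Nfkbib* were *Vasp* (0.036), *Taok2* (0.048) and *Vrk3* (0.054), beside a median of 0.285 over those genes. Each of these had its highest mean in FAK-/- and its lowest in FAK-kd cells, as *Nfkbib* did. *Vasp* averaged 219 CPM with FAK-WT, 256 without FAK and 181 with FAK-kd. The nearest to *Rel* were *Apaf1* (0.048), the scaffold of the apoptosome, *Slu7* (0.058) and *Traf3ip1* (0.059), beside a median of 0.267. All 3 had their lowest mean in FAK-WT and their highest in FAK-kd cells, as *Rel* did, *Apaf1* with means of 49.9, 58.4 and 66.9 CPM. These are the smallest of many distances and are given as a description, and what lies behind them was not tested.

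Outside the members, the pathway was described by lists of ligands, receptors, adaptors and ubiquitin ligases, kinases, other inhibitors and modulators, and target genes. Of 15 ligands, 9 were analysed and only *Il33*, an alarmin of the interleukin-1 family, had a mean above 1 CPM. Its libraries measured 138, 141 and 145 CPM in FAK-WT, 67.0, 62.7 and 46.3 in FAK-/- and 21.6, 37.7 and 37.4 in FAK-kd cells. *Il33* thus followed the reverse order of *Birc3*, highest in FAK-WT and lowest in FAK-kd cells, and all 3 of its differences passed the test (edgeR log2 fold changes 1.28, 2.14 and -0.86, with adjusted p of 8.77e-05, 6.22e-07 and 0.00489). No other ligand passed in any comparison, and the medians over the 9, mostly near 0 CPM, were 0.29, -0.25 and 0.71, beside 0.00 over all genes. *Il33* alone makes 11.1% of the ligands in each comparison, beside 18%, 17.7% and 7.84% of all genes. Of genes with a mean of at least 1 CPM, 27.8%, 27.3% and 12.5% passed. At levels near 0 CPM the missing calls say little of the other ligands.

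Of 21 receptors 20 were analysed, and 2 were higher and 3 lower with FAK-WT than without FAK, 2 higher and 6 lower than with FAK-kd, and 2 higher and 1 lower in FAK-kd than in FAK-/- cells, with median log2 fold changes of -0.01, -0.05 and -0.04. These are 25%, 40% and 15% of the receptors, beside 18%, 17.7% and 7.84% of all genes. Of genes with a mean of at least 1 CPM, a level that 9 of the 20 reached, 27.8%, 27.3% and 12.5% passed. The 6 include *Tlr3*, named after its values were seen, with 2, 0 and 0 counts in the FAK-WT libraries. *Tnfrsf11a*, the gene of the RANK receptor, measured 3.78, 1.06 and 1.07 CPM in FAK-WT, 3.45, 3.08 and 2.14 in FAK-/- and 4.35, 5.39 and 5.30 in FAK-kd cells. Its high FAK-WT value is 3 counts of the shallow library, and the other FAK-WT libraries lay below all others. *Tnfrsf11a* was lower in FAK-WT than in FAK-kd cells (edgeR log2 fold change -2.11, SE 0.31, adjusted p = 0.00014) and than in FAK-/- cells (-1.32, SE 0.31, adjusted p = 0.00658), where the call was lost without FAK-WT replicate 2 (adjusted p = 0.0829) or 3 (0.0792). *Il1rl1*, the gene of the IL-33 receptor ST2, averaged 12.2 ± 1.85 CPM with FAK-WT, 14.8 ± 1.90 without FAK and 26.7 ± 8.42 with FAK-kd (SD, n = 3). It was lower in FAK-WT than in FAK-kd cells (-1.03, SE 0.20, edgeR adjusted p = 0.00193) and higher in FAK-kd than in FAK-/- cells (0.86, SE 0.18, adjusted p = 0.00876), the latter lost without FAK-kd replicate 2 (0.73, adjusted p = 0.0541) or 3 (0.69, adjusted p = 0.0858).

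All 22 adaptors and ubiquitin ligases were analysed, and none was higher and 3 were lower with FAK-WT than without FAK, 1 higher and 4 lower than with FAK-kd, and 1 higher and 1 lower in FAK-kd than in FAK-/- cells (medians -0.10, -0.04 and 0.02). The shares, 13.6%, 22.7% and 9.09%, stood below the 27.8%, 27.3% and 12.5% of genes with a mean of at least 1 CPM, a level that all 22 reached. *Traf1*, a TNF receptor adaptor and itself a known κB target, was the gene higher in FAK-kd than in FAK-/- cells (edgeR log2 fold change 1.24, SE 0.28, adjusted p = 0.0125), with 3.30, 2.49 and 2.96 against 1.62, 1.10 and 0.960 CPM. It was lower in FAK-WT (2.52, 1.01 and 1.07 CPM) than in FAK-kd cells (-1.40, SE 0.32, adjusted p = 0.00557). The first FAK-WT value is 2 counts, and the call was lost without FAK-WT replicate 2 (adjusted p = 0.0802) or 3 (0.0664), as was that of FAK-kd over FAK-/- without FAK-kd replicate 1 (0.0603) or 3 (0.0673, edgeR).

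Of the 9 kinases, 2 were higher and 3 lower with FAK-WT than without FAK, none was higher and 3 were lower than with FAK-kd, and 1 was higher and none lower in FAK-kd than in FAK-/- cells (medians -0.20, 0.01 and 0.04), or 55.6%, 33.3% and 11.1% of the list beside 18%, 17.7% and 7.84% of all genes. Of genes with a mean of at least 1 CPM, a level that 8 of the 9 kinases reached, 27.8%, 27.3% and 12.5% passed. None of the kinases passed with a change of 1 or more on the log2 scale. The kinases named here were picked after their values were seen. The 2 higher with FAK-WT than without FAK were *Chuk* (edgeR log2 fold change 0.33, adjusted p = 0.0392) and *Map3k7* (0.23, adjusted p = 0.0316). *Ikbkg*, the gene of the regulatory IκB kinase subunit NEMO, averaged 45.7 CPM with FAK-WT, 54.1 without FAK and 69.1 with FAK-kd, in the same order as *Birc3*, and passed the test in all 3 comparisons (edgeR log2 fold changes -0.27, -0.62 and 0.35, with adjusted p of 0.0298, 4.8e-05 and 0.00731). *Map3k14*, the gene of NIK, which starts the alternative pathway, was lower in FAK-WT cells (29.6 CPM) than in FAK-/- (43.0 CPM, log2 fold change -0.55, adjusted p = 0.00459) and FAK-kd cells (41.4 CPM, -0.50, adjusted p = 0.00903, edgeR).

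Of the 19 other inhibitors and modulators, 3 were higher and 3 lower with FAK-WT than without FAK, 3 higher and 5 lower than with FAK-kd, and 2 higher and 2 lower in FAK-kd than in FAK-/- cells (medians -0.14, -0.17 and 0.09). That is 31.6%, 42.1% and 21.1% of the list, where 18%, 17.7% and 7.84% of all genes passed. Of genes with a mean of at least 1 CPM, a level that 15 of the 19 reached, 27.8%, 27.3% and 12.5% passed. *Bcl3*, an IκB family member that works in the nucleus with p50 and p52 and is itself a known κB target, was the only one past both criteria for FAK-WT cells and is named after its values were seen, since its mean lay below 1 CPM. It measured 0, 0.0798 and 0.0288 CPM in FAK-WT (0, 3 and 1 counts), 0.509, 0.552 and 0.768 in FAK-/- and 1.11, 1.20 and 1.41 in FAK-kd cells. As for *Birc3*, FAK-WT cells were near the floor, and FAK-kd libraries lay above all FAK-/- libraries. By edgeR, FAK-WT over FAK-/- gave a log2 fold change of -3.39 (SE 0.54, adjusted p = 0.000371) and FAK-WT over FAK-kd gave -4.40 (SE 0.53, adjusted p = 2.27e-05), and FAK-kd over FAK-/- did not pass (1.01, SE 0.34, adjusted p = 0.0902). With 4 counts in all FAK-WT libraries, the size of the first 2 changes depends on the prior count of the fit.

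Target genes of NF-κB changed in both directions. Of 37 listed, 31 were analysed, and 11 were higher and 5 lower with FAK-WT than without FAK, 10 higher and 4 lower than with FAK-kd, and 3 higher and 4 lower in FAK-kd than in FAK-/- cells, with median log2 fold changes of 0.53, 0.33 and 0.03. In the first comparison that is 51.6% of the analysed targets past the test and in the second 45.2%, beside 18% and 17.7% of all genes and 27.8% and 27.3% of genes with a mean of at least 1 CPM, a level that 18 of the 31 reached. In the third it is 22.6%, beside 7.84% and 12.5%.

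The chemokines among them split. *Cxcl10*, which attracts T cells, measured 2.52, 2.34 and 2.71 CPM in FAK-WT, 0.0899, 0.197 and 0.192 in FAK-/- and 0.0899, 0.569 and 0.293 in FAK-kd cells, a log2 fold change of 3.97 (SE 0.53, edgeR adjusted p = 6.57e-05) and 2.98 (SE 0.48, adjusted p = 0.000374). *Ccl2*, which attracts monocytes, averaged 9.64 ± 2.92 CPM in FAK-WT against 2.31 ± 0.620 in FAK-/- and 2.62 ± 0.741 in FAK-kd cells (SD, n = 3), and was higher by 2.21 (SE 0.26, edgeR adjusted p = 1.61e-05) and 2.03 (SE 0.25, adjusted p = 3.34e-05). *Ccl5* was higher by 2.42 in both (SE 0.35 and 0.34, edgeR adjusted p = 0.000133 and 0.00012). These 3 chemokine genes were higher in every FAK-WT library than in any library of the other lines. In the shallow FAK-WT replicate 1, however, this rests on 2 counts of *Cxcl10*, 1 of *Ccl5* and 5 of *Ccl2*. For *Cxcl10* and *Ccl5* that is below the floor of 3 counts. These 2 genes also reached the mean of 1 CPM asked of a named gene only through FAK-WT cells. *Ccl5* measured 1.26 CPM there, against 3.51 and 3.4 CPM in FAK-WT replicates 2 and 3.

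*Cx3cl1*, the gene of the membrane-bound chemokine fractalkine, went the other way. It measured 84.3, 73.3 and 76.8 CPM in FAK-WT, 416, 409 and 465 in FAK-/- and 337, 299 and 309 in FAK-kd cells, and was lower in FAK-WT cells by both comparisons (edgeR log2 fold changes -2.49 and -2.05, SE 0.08 each, adjusted p = 2.64e-11 and 2e-10). *Vcam1*, a leukocyte adhesion molecule, averaged 48.3 ± 7.09 CPM with FAK-WT, 25.6 ± 3.46 without FAK and 23.6 ± 1.36 with FAK-kd (SD, n = 3) and was higher in FAK-WT cells (0.98 and 1.10, SE 0.12 each, edgeR adjusted p = 2.48e-05 and 7.91e-06). *Plau*, the gene of urokinase, was higher by 0.91 and 1.06 (SE 0.17 each, edgeR adjusted p = 0.00116 and 0.000294). Its FAK-WT and FAK-/- libraries overlapped, since the shallow FAK-WT replicate 1 measured 6.29 CPM (5 counts) and FAK-/- replicate 2 measured 6.7. The levels of secreted factors outside the cells were not measured here.

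**Figure D4:**
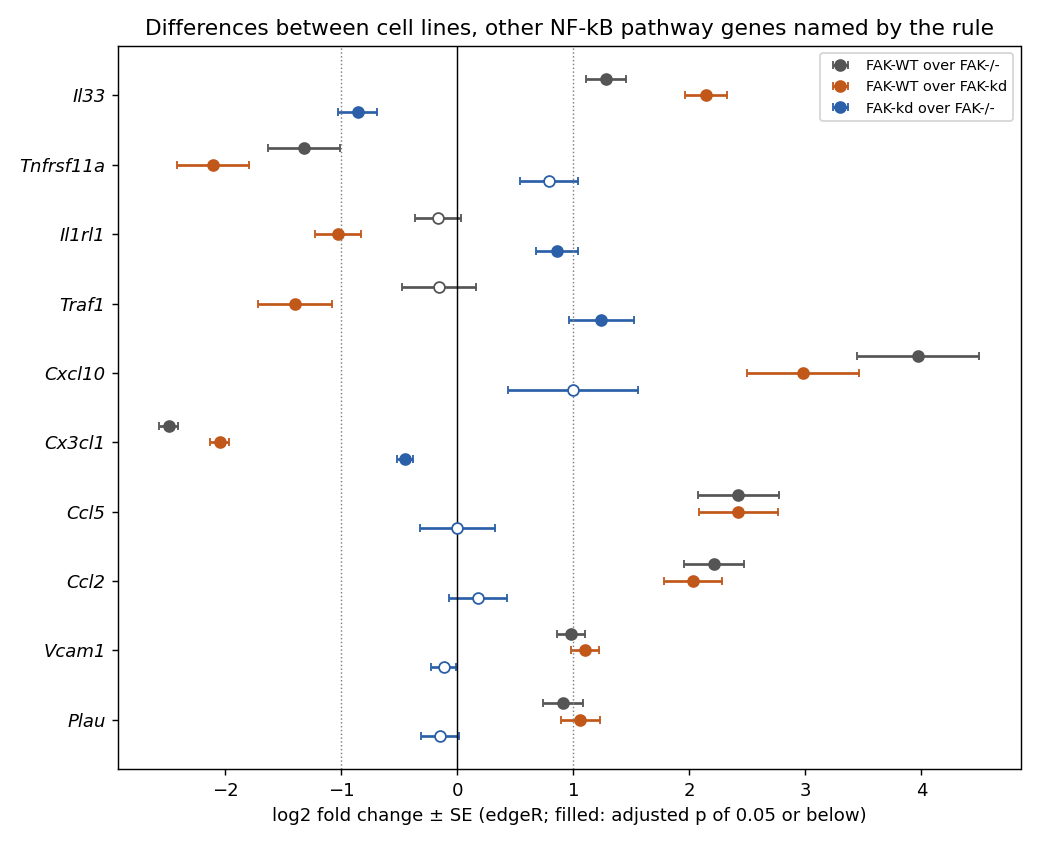
Log2 fold change ± SE (horizontal axis) in the 3 comparisons for the 10 other pathway genes that changed by at least 1 in size with a mean of at least 1 CPM, from edgeR over all 9 libraries, with filled circles for an adjusted p of 0.05 or below. *Cxcl10*, *Ccl5*, *Ccl2*, *Vcam1* and *Plau* were higher and *Cx3cl1* lower in FAK-WT cells than in both other lines, while *Il33* differed between all 3. *Cxcl10* and *Ccl5* reached the mean of 1 CPM only through FAK-WT cells.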

How the data were processed

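RNA was sequenced from 9 cultures of mouse SCC cells, 3 libraries for each of 3 cell lines, with the TruSeq RNA v2 kit (unstranded, paired-end). The authors determined transcript abundance with kallisto (version 0.43.1 per the submitters' processing notes, which name GRCm38 and mm10), summarized it to genes with tximport and removed genes with no reads. The deposited values are expected counts, the estimated counts rounded to whole numbers by the authors and not scaled to library size.

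All 19044 genes were fitted in edgeR 4.0.16 (R 4.3.3) with TMM normalization and the quasi-likelihood test, with cell line as the only factor, and p-values were adjusted by Benjamini-Hochberg over all genes. A gene was called higher or lower at an adjusted p of 0.05 or below, and the stricter call also asked for a change of 1 or more in size on the log2 scale. The SE is the log2 fold change divided by the square root of its F statistic. The libraries held 779755 to 37264636 counts, and the floor of 3 counts covers counting error only. Symbols, positions and transcript lengths came from GENCODE (GRCm38) and start windows from RefSeq.

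The members, lists and tests were chosen with earlier results of these data known. Genes other than members were named when they passed both criteria in at least 1 comparison with a mean of at least 1 CPM, at most 6 per list. The steps were tested on simulated data. The alternatives were DESeq2 1.42.0, its size factors, library size, filterByExpr, fits of the 2 groups compared, a replicate block, glmTreat and leaving out each library, and, added after seeing the data, a fit of 7 libraries.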

Additional observations from a re-analysis of the deposited data

Results flagged for a closer look

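*Birc3* and *Il33* stood on opposite sides of the FAK-/- level in the 2 lines that express FAK. *Birc3* was lower in FAK-WT and higher in FAK-kd than in FAK-/- cells (log2 fold changes -3.65 and 1.54), and the difference between these effects, equal to the log2 fold change of FAK-WT over FAK-kd, was -5.18 (SE 0.39, edgeR adjusted p = 1.72e-07). *Il33* was higher in FAK-WT and lower in FAK-kd than in FAK-/- cells (1.28 and -0.86), and the difference was 2.14 (SE 0.18, edgeR adjusted p = 6.22e-07). Both effects of each gene are measured against the same FAK-/- libraries.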

How the results depend on the processing

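Of the 10 members, 3, 2 and 2 passed the adjusted p in FAK-WT against FAK-/-, FAK-WT against FAK-kd and FAK-kd against FAK-/- cells. For FAK-WT against FAK-kd cells the count was 1 with DESeq2, 6 with only the 2 groups compared, 7 in the fit of 7 libraries (without FAK-WT replicate 1 and FAK-/- replicate 3, chosen after seeing the data) and 1 to 7 with each library left out. The other counts ranged over 3 to 5 and 2 to 3 with each library left out, and with both criteria over 1 to 2 for FAK-WT against FAK-/- cells. With edgeR's glmTreat no member passed a change of 1 in FAK-kd against FAK-/- cells, where *Birc3* passes both criteria (adjusted p = 0.507 by glmTreat). It was the 1 member under an unadjusted 0.05 there, and DESeq2 called 1 by both criteria. Over all genes, glmTreat called 433, 450 and 117 where both criteria called 1024, 1001 and 382, and the numbers past the adjusted p with each library left out ranged over 2026 to 4398, 2096 to 5366 and 718 to 2221.

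Replicate numbers did not pair the libraries: across genes, deviations from the group means had a mean r of -0.0202 in same-numbered pairs (-0.0858 to 0.0583, 9 pairs), 0.0102 for others, and 1 of 9 libraries correlated best with its own number. With the replicate block 4, 3 and 3 members passed.

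Directions turned only for differences that passed no test, and the cause was not tested. With each library left out, the log2 fold change of FAK-WT over FAK-/- ranged from -0.06 to 0.01 for *Nfkb1* and -0.34 to 0.10 for *Traf1* (0.02 with the block). That of FAK-WT over FAK-kd ranged from -0.01 to 0.09 for *Nfkb1* (0.00 with 7 libraries), -0.12 to 0.08 for *Relb* (0.00 with DESeq2 and filterByExpr, 0.01 with library size) and -0.05 to 0.15 for *Nfkbia* (-0.05 with 7 libraries). That of FAK-kd over FAK-/- ranged from -0.06 to 0.16 for *Rela*, -0.19 to 0.28 for *Ccl5* (0.00 with 2 groups) and 0.00 to 0.40 for *Ccl2* (0.00 with 7 libraries). Of the members' other values under an alternative, 435 kept direction and call, 23 gained a call and 5 lost it. Depth limits FAK-WT replicate 1 below 3.78 CPM.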
